A study of Homo sapiens with 14 samples.

Results

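The SPARK-ON line and the n-Myc control line of the study were compared with lenalidomide present in both, gene by gene. All samples labelled with either n-Myc line and lenalidomide were taken, which gave 5 of the 14 samples of the series: 3 libraries of n-Myc SPARK-ON cells and 2 of n-Myc control cells. Both lines derive from SH-EP cells, a long-established neuroblastoma line of human origin that grows adherent and is of the mesenchymal type, and polyA RNA was sequenced. Per the series design text, the SPARK-ON cells are 1 clone that carries n-Myc SPARK-ON at a level below that at which the protein condenses by itself, lenalidomide is added to make n-Myc phase separate at an unchanged protein amount, and a line without SPARK-ON shows what the compound does alone. The sources used here do not say whether the control line is also 1 clone. The treatment labels read "lenalidomide ON" and "DMSO ON", with no dose or time. The same lines in DMSO, the solvent, with 3 libraries each, served to set the line difference with the compound beside that without it.

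n-Myc, the product of MYCN, is a transcription factor that pairs with MAX and binds E-box DNA, and MYCN amplification marks aggressive neuroblastoma. Many transcription factors can gather with coactivators in condensates, liquid-like assemblies without a membrane, and phase separation is the process that forms them. Lenalidomide binds cereblon, the substrate receptor of a ubiquitin ligase encoded by CRBN, and recruits further proteins to it, among them the lymphoid factors IKZF1 and IKZF3. A difference between these 2 lines under the compound holds at once the SPARK-ON construct, the condensates it forms and anything else by which the cell populations differ, and these cannot be told apart within the comparison. In such bulk RNA, fewer cells that express a gene and less RNA of it per cell cannot be told apart either.

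Total counts were 15980539, 15769113 and 6614671 in the SPARK-ON lenalidomide libraries and 16310438 and 19748302 in the control ones. Levels are given as CPM, read counts divided by the library total after TMM scaling, as edgeR's cpm function gives them. At these depths 3 reads, taken as the limit that a count of 0 allows, came to between 0.152 and 0.454 CPM per library. Such limits and the counting intervals below cover counting error only. SPARK-ON lenalidomide replicate 3, the shallowest library, stood apart from the other 10 libraries of the n-Myc lines on the second principal component. The third component split the control libraries. Control lenalidomide replicates 1 and 2 lay at -20.8 and 16.6 there, and control DMSO replicate 1 at 38.9. Across genes, libraries of 1 group correlated at r = 0.981 to 0.989 under lenalidomide, and the 6 pairs from different lines at 0.931 to 0.938. All 8 mesenchymal neuroblastoma markers reached 1 CPM in the 5 libraries. Their summed level was 1554 to 1693 CPM in SPARK-ON cells and 2872 to 2874 CPM in control cells. VIM (mean 542 against 1309 CPM) and CD44 (537 against 1135 CPM) made that gap. FN1 (155 against 87.1 CPM) and NOTCH2 (231 against 189 CPM) went the other way. SNAI2 and TWIST1 had slightly higher means in SPARK-ON cells, and PRRX1 and YAP1 slightly lower ones. Of 8 adrenergic neuroblastoma markers GATA3 alone reached 1 CPM, and PHOX2A and ISL1 were among those without a read. Of 16 markers of blood, epithelium, endothelium, liver and melanocytes 8 had no read, and their summed level was 3.0 to 4.56 CPM in SPARK-ON cells and 2.18 to 2.85 CPM in control cells.

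The lines differed in a large share of the transcriptome. Of 16056 genes tested, 6334 (39.4%) differed between SPARK-ON and control cells under lenalidomide by edgeR's quasi-likelihood test at a Benjamini-Hochberg adjusted p below 0.05. In SPARK-ON cells 3165 genes were higher (19.7%) and 3169 were lower (19.7%). By at least 2-fold, 1639 were higher (10.2%) and 776 lower (4.83%). These shares are the background for every count of list members below. The spread was pooled over the 11 libraries of both lines, with a biological coefficient of variation of 9.40%. Estimated within each line, it came to 4.74% for SPARK-ON (6 libraries) and 13.1% for control (5 libraries), so the p-values do not measure the control line's own spread. The labels do not say whether replicates were separate cultures, so the spread behind the p-values may be technical. The median difference over all genes was 0.02 (log2) with TMM scaling and 0.12 with scaling by library size alone, where 4045 genes were higher and 2396 lower.

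MYCN itself did not differ detectably between the lines. Its level was 2618, 2420 and 2485 CPM in the SPARK-ON libraries and 2762 and 2330 CPM in the control libraries, so the groups overlapped. The MYCN difference was -0.02 on the log2 scale (SE 0.092, 95% interval -0.22 to 0.17, adjusted p = 0.873). Counts at the MYCN gene (ENSG00000134323.12, GRCh38 chr2:15940564-15947007, plus strand) cannot tell the cells' own transcript from that of an introduced n-Myc. MYC, the relative of MYCN, was at 5.82, 7.46 and 8.38 CPM in SPARK-ON cells and at 3.29 and 3.67 CPM in control cells, with no overlap. The MYC difference was 1.02 (SE 0.26, adjusted p = 0.0042), and MYC stayed under 10 CPM in all 5 libraries.

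As a list, the partners and antagonists of Myc proteins were called about as often as all tested genes (39.4%). Of 12 tested genes of the MYC and MAX network 2 were higher, MYC and MNT, and 3 were lower. MNT, which encodes a repressor that also pairs with MAX, lies in the first 20 Mb of chromosome 17. Without genes of that stretch and of chromosomes 18 and 19, 1 of 11 was higher and 3 were lower. MXI1, MXD3 and MXD4, which encode repressors that compete with Myc for MAX, were the 3 lower ones, at -1.05, -0.74 and -0.53. MXI1 stood at 50.7, 45.2 and 56.5 CPM in SPARK-ON cells against 107 and 103 CPM in control cells. MAX had a difference of -0.27 with adjusted p = 0.0678 and overlapping libraries. It was called by limma-voom (adjusted p = 0.0467) and when SPARK-ON lenalidomide replicate 3, control lenalidomide replicate 1 or control DMSO replicate 1 was left out. Of 18 Myc coactivators and partners 1 was higher and 5 were lower, with 3 lower under RLE scaling and under library size alone, and with 1 of 15 higher and 2 lower when genes of chromosomes 18 and 19 and of the first 20 Mb of chromosome 17 were left out. RUVBL2, at -0.64, lies on chromosome 19, and FBXW7, whose product marks Myc for degradation, stood at -0.61.

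CRBN, the gene of the protein that binds lenalidomide, was lower in SPARK-ON cells. It stood at 257, 285 and 268 CPM against 387 and 355 CPM in control cells, with no overlap, a difference of -0.46 (SE 0.078, adjusted p = 0.000126). The list of the cereblon ligase also held genes of proteins that it takes up with lenalidomide or with related compounds. Of its 18 tested genes 3 were higher and 8 lower, and with scaling by library size alone 5 were lower. IKZF1 was higher, with 54.3, 47.8 and 48.7 CPM against 17.1 and 16.7 CPM, a difference of 1.58 (SE 0.14, adjusted p = 6.59e-08). IKZF3 had 45 reads in the SPARK-ON libraries and 0 in the control libraries, at least 13.8-fold higher with the limit of 3 reads taken over both control libraries together. The zinc finger genes ZNF827, WIZ and ZNF653 were lower, at -1.0, -0.91 and -1.25. GSPT1, a translation termination factor known as a target of the related compounds, was lower at -0.37. WIZ and ZNF653 lie on chromosome 19. Protein levels, on which the compound acts, were not measured.

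The largest differences were of genes read almost exclusively in 1 of the lines. NLRP1, a sensor protein that starts inflammasome assembly (ENSG00000091592.16, chr17:5499427-5619424, minus strand), had 263, 285 and 251 CPM in SPARK-ON cells and 0.253 and 0 CPM in control cells. The control libraries together held 4 NLRP1 reads, and the fitted difference was 11.08 (SE 0.28, adjusted p = 1.28e-14). SULT1A1, a sulfotransferase gene, stood at 31.3, 35.8 and 34.7 CPM in SPARK-ON cells without a read in control cells, at least 391-fold higher. It has close paralogs, as have ANXA8, AKR1C2 and SSX1, and no source used here says how shared reads were assigned. SSX1, a gene otherwise known from testis and some tumours, had 29.2, 25.7 and 29.9 CPM and no read in control cells, at least 326-fold higher. CCDC172 and PGAP4 also had no read in the control libraries and were at least 247-fold and 246-fold higher. SLC12A7, a potassium and chloride cotransporter gene, had 71.2, 73.1 and 71.3 CPM against 0.316 and 0.373 CPM, and SNCG, the gamma-synuclein gene, 68.8, 68.2 and 68.1 CPM against 0.316 and 0.851 CPM. In these genes every SPARK-ON library lay above both control libraries, which held for 30.4% of all tested genes, and the genes were picked for it.

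In the other direction, C5orf46 and PCK1 were read almost exclusively in control cells. C5orf46 had 0.0606, 0 and 0 CPM in SPARK-ON cells and 29.5 and 30.3 CPM in control cells. The SPARK-ON libraries held 1 C5orf46 read in all, so that the control level was 1187 times higher with a 95% counting interval from 213 to 46934. PCK1, the gene of a key enzyme of glucose synthesis, had 3 reads in the SPARK-ON libraries and 23.1 and 24.4 CPM in control cells, a ratio of 315 with an interval from 107 to 1531. IGFBP5, a secreted binding protein of insulin-like growth factors, stood at 2.18, 2.45 and 2.94 CPM in SPARK-ON cells and at 163 and 154 CPM in control cells, a difference of -6.02 (SE 0.16). GPM6B, a membrane glycoprotein of neural cells, differed by -5.44, and CNR1, a cannabinoid receptor gene, by -4.50. CNR1 had 9.69, 8.56 and 7.80 CPM against 212 and 189 CPM. In all of these genes every SPARK-ON library lay below both control libraries, which held for 29.3% of all tested genes, and the genes were picked for it.

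Genes of innate immunity were higher in SPARK-ON cells. Of 11 tested complement genes 7 were higher and 0 lower, with a median difference of 2.14. C3, the central component that is cleaved when the cascade starts, had 84.1, 79.1 and 78.8 CPM in SPARK-ON cells and 0.443 and 0.692 CPM in control cells, a difference of 7.11 (SE 0.20, adjusted p = 1.44e-14). C1S, a protease of the classical pathway, had 30.3, 29.97 and 20.7 CPM against 0.695 and 1.06 CPM, a difference of 4.93 (SE 0.24, adjusted p = 1.34e-11). Its partner protease C1R differed by 3.0, and CLU, the clusterin gene, by 2.14. The membrane-bound inhibitors CD46, CD55 and CD59 were not called, and CD55 had a difference of 0.11 with a 95% interval of -0.11 to 0.33. C3 lies on chromosome 19, whose genes were mostly lower in SPARK-ON cells.

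NF-kappaB targets and cytokine genes followed the same direction. Of 20 tested 15 were higher and 1 lower, with a median of 1.86, and 14 were higher by at least 2-fold. NFKB2, a subunit made as a precursor, had 104, 108 and 107 CPM in SPARK-ON cells against 25.1 and 26.3 CPM in control cells, a difference of 2.05 (SE 0.097, adjusted p = 1.23e-11). NFKBIA and TNFAIP3, inhibitors that the pathway itself induces, differed by 1.52 (adjusted p = 1.54e-08) and 2.55 (adjusted p = 1.05e-08). ICAM1, an adhesion receptor for leukocytes, BIRC3, an inhibitor of cell death, and CCL2, a chemokine that draws monocytes, differed by 2.67, 2.70 and 2.42. NFKB1, the other precursor subunit, had a difference of 0.13 that was not called, and LIF, a cytokine of the interleukin 6 family, was the 1 lower member at -0.54.

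Antigen presentation genes were higher in SPARK-ON cells. Of 16 tested genes of MHC class I presentation, the display of protein fragments to T cells, 14 were higher and 1 lower, with a median of 0.92. HLA-B, a class I heavy chain, had 13.8, 14.4 and 13.5 CPM in SPARK-ON cells and 0.443 and 0 CPM in control cells. HLA genes are variable and near-identical to each other, so their counts are uncertain. B2M, the shared light chain, had 1096, 1163 and 1108 CPM against 665 and 720 CPM, a difference of 0.70 (SE 0.083, adjusted p = 2.50e-06). TAP1, a subunit of the peptide transporter, had 45.6, 53.3 and 52.5 CPM against 22.9 and 25 CPM, a difference of 1.07 (adjusted p = 4.62e-07). The immunoproteasome subunit PSMB9 stood at 2.14 and NLRC5, an activator of class I gene transcription, at 1.0. CALR, an endoplasmic reticulum chaperone on chromosome 19, was the lower member at -0.28.

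Interferon-stimulated genes were higher in part. Of 28 tested 15 were higher, 0 lower and 13 not called, with a median of 0.87. OAS2, an antiviral enzyme, had 2.97, 3.30 and 3.97 CPM against 0.379 and 0.213 CPM, and MX1, an antiviral GTPase, 10.4, 11.7 and 11 CPM against 3.79 and 4.36 CPM. IFIT3 differed by 1.34 (adjusted p = 2.69e-05). OAS1 had 74 reads in SPARK-ON libraries and 2 in control libraries, a ratio of 32.3 with a counting interval from 8.63 to 272. ISG15 had a difference of -0.23 (interval -0.64 to 0.18) that was not called. Of 23 tested apoptosis and pyroptosis regulators 7 were higher and 3 lower, and without control lenalidomide replicate 1 there were 5 and 6. Without control DMSO replicate 1 there were 6 lower. CASP1, the protease that inflammasomes activate, stood at 2.17 and CASP8 at 0.83. GSDMD, the pore protein that CASP1 cleaves, had a difference of -0.24 that was not called.

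**Figure D1:**
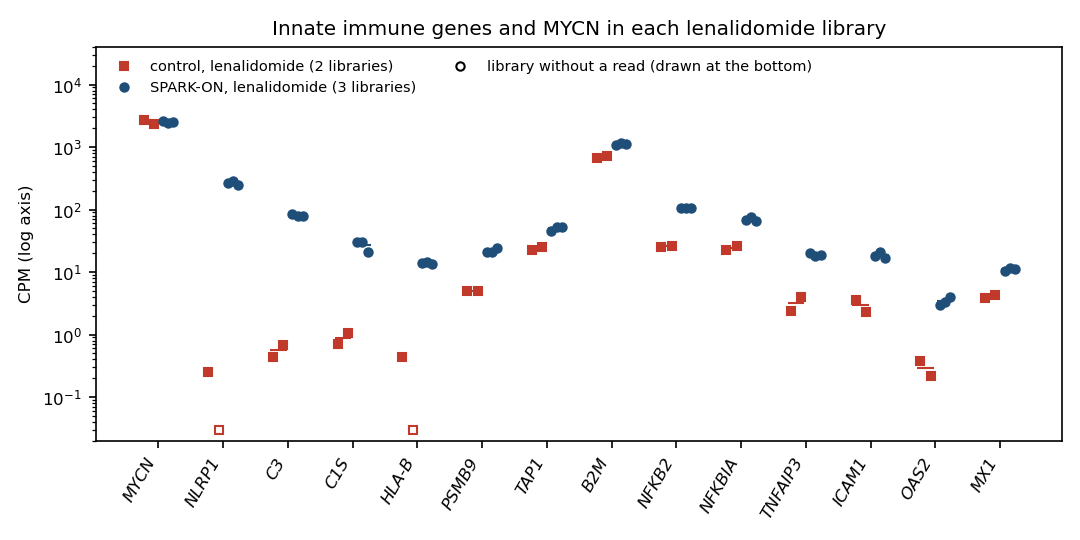
Levels of MYCN and 13 innate immune genes in the lenalidomide libraries, in CPM on a log axis. Squares are the 2 control and circles the 3 SPARK-ON libraries, short lines are means of groups in which every library had a read, and open symbols are libraries without a read. MYCN overlapped between the lines, whereas the 13 other genes were higher in every SPARK-ON library. That held for 30.4% of all tested genes, and the 13 were picked after their values were seen. Members of the same lists that were not called, such as ISG15 and NFKB1, are not drawn.

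The promoters of tested genes were searched for 3 motifs on both strands: kappaB sites (GGGA, any base, TTTCC), the core of interferon-stimulated response elements (GAAA, any 2 bases, GAAA) and the E-box (CACGTG) that Myc and MAX bind. The window ran from 250 bases before to 50 bases after the RefSeq start, and 11364 tested genes had one. A kappaB match was in 0.607% of all these promoters, in 1.04% of those of genes higher in SPARK-ON cells and in 0.285% of those of genes lower. The response element core was in 2.84% of all, 3.82% of the higher and 2.40% of the lower, and in 7 of 10 promoters of the called interferon-stimulated genes, 6 of 12 of MHC class I presentation and 2 of 11 of the NF-kappaB and cytokine list. The kappaB motif was in 3 of 11 promoters of the called NF-kappaB and cytokine genes, 2 of 12 of MHC class I presentation and 1 of 10 of the interferon-stimulated genes, and neither motif was in the 3 complement promoters. The E-box was in 9.86% of all, 9.28% of the higher, 8.82% of the lower and 10.4% of those not called. Over all 27305 RefSeq promoters the shares were 0.579%, 3.65% and 7.43%. A match is a run of letters, not a bound site. The lists hold known targets of these pathways, whose promoters can carry the motifs whether or not the lines differ. Members that were not called were not counted apart, so the list shares do not bear on why the lines differ. The 250 bases before the start are shown for 5 genes chosen because they hold a match and have values above, on the gene's strand, with kappaB and response element matches in capitals, reversed where they lie on the other strand (RefSeq, GRCh38.p14). They show how close to the start the matches lay and that B2M and TAP1 carried both motifs. NFKBIA is at chr14:35404750-35404999 (minus strand), TNFAIP3 at chr6:137867009-137867258 (plus strand), B2M at chr15:44711267-44711516 (plus strand), TAP1 at chr6:32853705-32853954 (minus strand) and IFIT3 at chr10:89327747-89327996 (plus strand).
NFKBIA: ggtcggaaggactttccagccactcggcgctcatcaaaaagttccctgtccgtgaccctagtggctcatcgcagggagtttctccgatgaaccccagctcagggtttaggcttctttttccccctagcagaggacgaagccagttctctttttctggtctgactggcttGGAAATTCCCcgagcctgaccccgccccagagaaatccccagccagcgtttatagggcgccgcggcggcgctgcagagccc
TNFAIP3: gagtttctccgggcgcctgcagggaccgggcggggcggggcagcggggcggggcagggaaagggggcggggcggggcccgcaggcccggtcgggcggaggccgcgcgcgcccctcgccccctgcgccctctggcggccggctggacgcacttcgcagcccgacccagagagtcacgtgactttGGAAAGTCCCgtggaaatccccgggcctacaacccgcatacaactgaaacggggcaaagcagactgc
B2M: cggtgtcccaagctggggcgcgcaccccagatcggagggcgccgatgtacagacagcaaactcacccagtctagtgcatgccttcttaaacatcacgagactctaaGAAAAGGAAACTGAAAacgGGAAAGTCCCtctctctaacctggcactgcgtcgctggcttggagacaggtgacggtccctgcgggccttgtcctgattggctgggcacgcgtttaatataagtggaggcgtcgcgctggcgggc
TAP1: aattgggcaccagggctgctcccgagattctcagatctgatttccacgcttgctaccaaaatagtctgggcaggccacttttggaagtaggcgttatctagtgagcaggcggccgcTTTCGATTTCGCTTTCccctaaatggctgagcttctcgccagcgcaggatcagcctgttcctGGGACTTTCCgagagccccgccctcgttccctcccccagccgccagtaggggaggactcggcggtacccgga
IFIT3: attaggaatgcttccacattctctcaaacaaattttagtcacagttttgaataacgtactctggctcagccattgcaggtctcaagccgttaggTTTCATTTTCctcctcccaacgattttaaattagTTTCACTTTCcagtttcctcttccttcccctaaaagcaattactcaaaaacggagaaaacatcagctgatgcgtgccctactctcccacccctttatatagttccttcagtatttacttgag

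Whole chromosomes differed between the lines. Among 12919 tested protein-coding genes 21.3% were higher and 22.4% lower. Of 180 genes on chromosome 18, 132 were lower (73.3%) and 12 higher, with a median of -0.84. Of 934 on chromosome 19, 568 were lower (60.8%) and 77 higher, with a median of -0.54. Over the first 20 Mb of chromosome 17, 135 of 209 genes were higher (64.6%) and 1 lower, with a median of 0.66, against 0.15 over the remainder of that chromosome. Genes of all other regions had a median of 0.02, with 21.8% higher and 18.9% lower.

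The shifts ran along the whole of chromosomes 18 and 19. In windows of 10 Mb that held at least 15 tested genes, 268 in number, all 8 windows on chromosome 18 and all 6 on chromosome 19 had a median below -0.4, and 0 elsewhere did. Both windows of the first 20 Mb of chromosome 17 had a median above 0.4, as had 1 window elsewhere, the end of chromosome 22 (0.68 under lenalidomide and 0.17 in DMSO). Some windows elsewhere fell just short of these limits. In the first 10 Mb of chromosome 7, 36 of 62 genes were lower (58.1%), with a median of -0.34 (-0.36 in DMSO). The window from 180 Mb on chromosome 2 had a median of -0.36, and that from 100 Mb on chromosome X one of 0.36. Chromosome 18 took 0.684% to 0.704% of counts in SPARK-ON lenalidomide libraries and 1.17% to 1.26% in control ones, and chromosome 19 took 5.71% to 5.95% against 7.29% to 8.10%. The first 20 Mb of chromosome 17 took 1.53% to 1.54% against 0.907% to 0.936%. The line groups did not overlap in any of these shares. In DMSO the medians were -0.81, -0.58 and 0.64. Chromosome 13 was lower to a smaller degree, with 72 of 220 genes lower (32.7%) and a median of -0.15. DNA copy number was not tested, and a difference between the genomes of the cell populations cannot be told apart from one that SPARK-ON brings. Counts outside chromosomes 18 and 19 and the first 20 Mb of chromosome 17, an alternative chosen after seeing the data, are given beside many of the lists below. These counts outside the 3 regions still include the windows of chromosomes 2, 7, 22 and X.

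**Figure D2:**
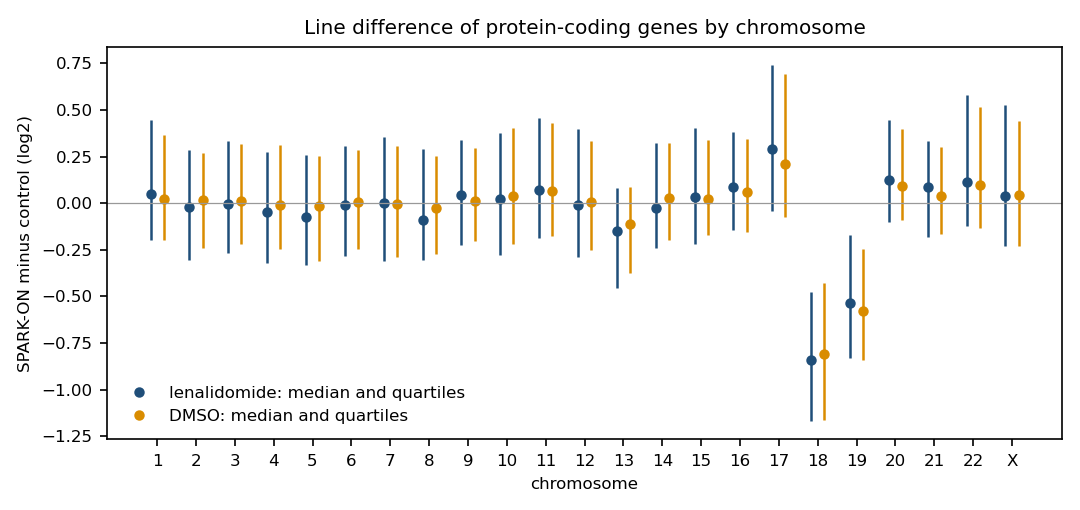
Line difference (SPARK-ON minus control, log2) of tested protein-coding genes by chromosome. Points are medians and lines run from the first to the third quartile, under lenalidomide and in DMSO. Chromosomes 18 and 19 lay below 0 with their whole interquartile range in both media, and chromosome 17 lay higher.

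The immune lists kept their direction outside these regions. There 12 of 17 NF-kappaB and cytokine genes were higher and 1 lower, 14 of 26 interferon-stimulated genes were higher and 0 lower, and 14 of 15 genes of MHC class I presentation were higher and 0 lower. Of 8 complement genes 4 were higher and 0 lower, with a median of 1.16. NLRP1 lies within the first 20 Mb of chromosome 17, as does NTN1, a secreted axon guidance cue with 26.2, 24.9 and 25.2 CPM against 0.822 and 0.639 CPM.

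Ribosomal protein genes were lower in SPARK-ON cells. Of 36 tested 25 were lower and 0 higher, with a median of -0.40, and outside the 3 regions 20 of 31 were lower and 0 higher, with a median of -0.35. RPS19 and RPS15, among the members with the smallest p, lie on chromosome 19. RPS19 had 889, 915 and 842 CPM in SPARK-ON cells and 1532 and 1758 CPM in control cells, a difference of -0.90 (SE 0.10, adjusted p = 1.87e-06). On other chromosomes RPLP0 differed by -0.59 (adjusted p = 7.83e-05) and RPL10 by -0.46 (adjusted p = 0.0031). Ribosomal proteins have many near-identical pseudogenes, so single counts are uncertain. Of 26 translation factors and tRNA synthetases 11 were lower and 2 higher. The 2 higher ones, EIF5A and EIF4A1, at 0.77 and 1.15, lie in the first 20 Mb of chromosome 17, and outside the 3 regions 9 of 22 were lower and 0 higher. With scaling by library size alone 4 of the 26 were higher and 9 lower. EEF2, the elongation factor on chromosome 19, and NARS1, a synthetase on chromosome 18, differed by -0.87 and -1.26.

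Ribosome biogenesis, a classical output of Myc, differed in few genes. Of 34 tested genes 9 were lower, 1 higher and 24 not called, with a median of -0.07, and outside the 3 regions 7 of 31 were lower and 0 higher. FBL, on chromosome 19, and BOP1 were lower at -0.71 and -0.44, whereas MYBBP1A, at the start of chromosome 17, was higher at 0.72. NCL and NPM1, abundant nucleolar proteins, each had a difference of -0.12 that was not called. In nucleotide, one-carbon and polyamine synthesis 12 of 28 genes were lower and 3 higher, and outside the 3 regions 11 of 26 were lower and 2 higher. PRPS2, which makes the sugar phosphate for nucleotides, PSPH, of serine synthesis, and PAICS, of purine synthesis, differed by -1.01, -0.85 and -0.59. ODC1, the first enzyme of polyamine synthesis and a known Myc target, had a difference of -0.11 that was not called.

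Glycolysis and hypoxia response genes were lower. Of 28 tested 16 were lower and 2 higher, with a median of -0.42, and outside the 3 regions 15 of 27 were lower and 2 higher. Under library size scaling 14 of the 28 were lower and 6 higher. VEGFA, a growth factor for blood vessels, had 65.3, 66.8 and 73 CPM in SPARK-ON cells against 254 and 229 CPM in control cells, a difference of -1.82 (SE 0.080, adjusted p = 4.15e-12). CA9, a carbonic anhydrase that marks hypoxic cells, had 0.424, 0.428 and 0.294 CPM against 6.58 and 6.28 CPM. NDRG1, PDK1 and BNIP3, all known targets of hypoxia-inducible factor, differed by -1.50, -1.33 and -1.17, and the glycolytic enzyme gene PGK1 by -0.82. LDHA and GAPDH had differences of 0.21 and 0.02 that were not called, and ADM and CA12 were the 2 higher members at 0.93 and 0.89.

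Sterol and lipid synthesis genes shared that direction. Of 21 tested 10 were lower and 0 higher, with a median of -0.43, and outside the 3 regions 9 of 19 were lower and 0 higher. In 10 of the alternatives, library size scaling among them, 1 member was higher. SCD, a fatty acid desaturase, had 363, 336 and 382 CPM against 784 and 758 CPM, a difference of -1.10 (SE 0.080, adjusted p = 3.91e-09). DHCR7, of the last step of cholesterol synthesis, had 45.0, 47.4 and 48.7 CPM against 78.0 and 88.9 CPM, a difference of -0.83. The transcription factor SREBF2, which drives these genes, stood at -0.65. FASN, the fatty acid synthase, had a difference of 0.25 that was not called.

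**Figure D3:**
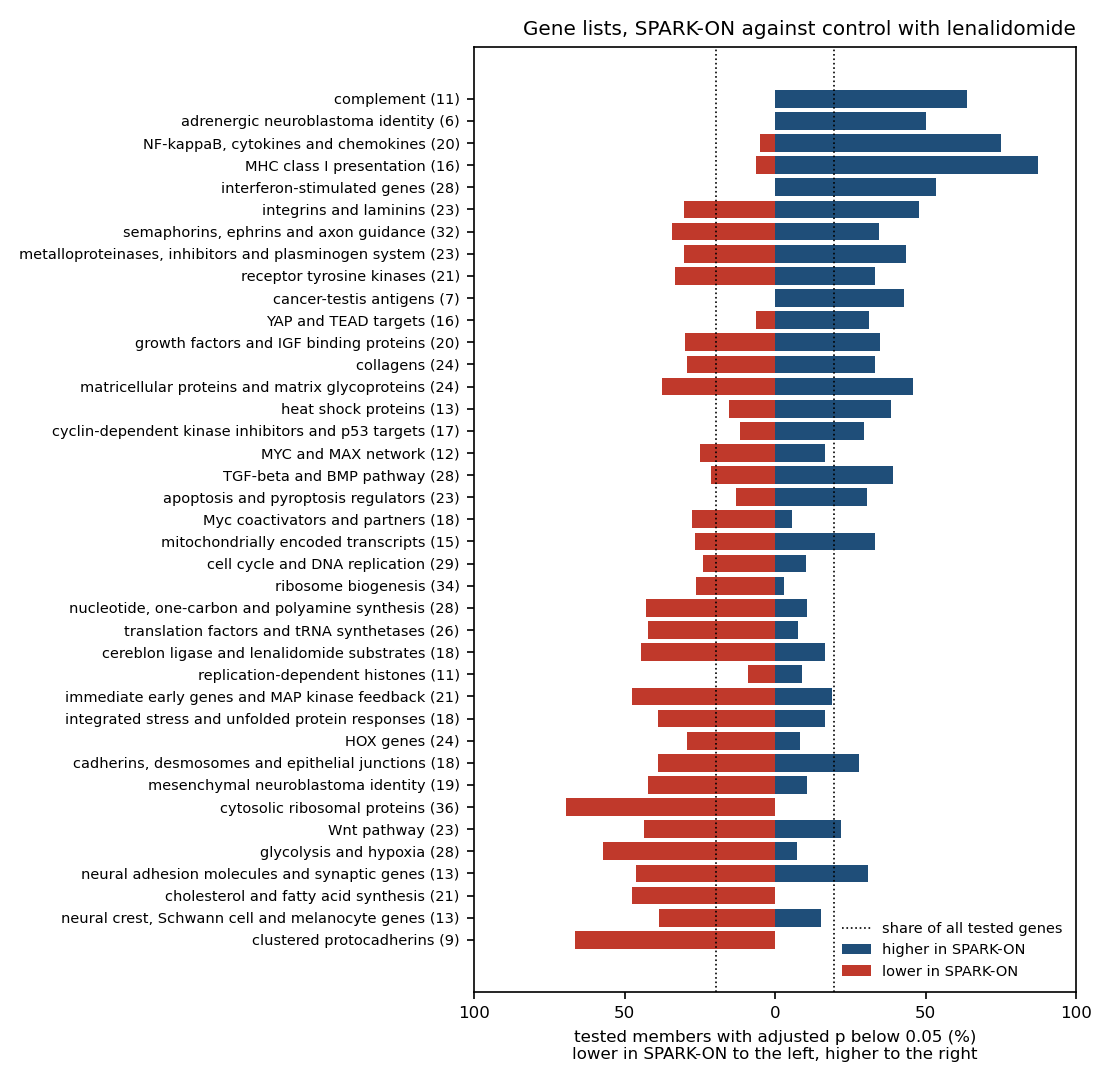
Share of tested members of each list drawn with adjusted p below 0.05, higher in SPARK-ON to the right and lower to the left, in percent. The number tested is in brackets and lists are ordered by median difference. The list of markers of other cell types, with 4 tested and 0 called, is not drawn. Dotted lines mark the share of all tested genes (19.7% each way). Complement, NF-kappaB, MHC class I and interferon lists extend to the right, and ribosomal proteins, glycolysis and hypoxia, cholesterol synthesis and clustered protocadherins to the left. With scaling by library size alone the cell cycle list went to 6 higher and 3 lower and the HOX list to 6 higher and 4 lower.

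Matrix genes differed in both directions. Of 24 collagen genes 8 were higher and 7 lower, and of 24 matricellular proteins and matrix glycoproteins 11 were higher and 9 lower. COL1A2, a chain of the main fibril collagen, had 7.27, 7.71 and 4.85 CPM in SPARK-ON cells against 60.6 and 59.7 CPM in control cells, a difference of -3.12 (SE 0.14, adjusted p = 4.91e-12). COL12A1 and the proteoglycan gene VCAN were also lower, at -2.14 and -2.85, as was SPOCK1, at -3.36. COL6A3 was higher at 2.33, CCN3 at 4.68, FBLN1 at 2.65 and BGN, the biglycan gene, at 3.81. POSTN, the periostin gene, had 0.121, 0.245 and 0 CPM against 8.66 and 7.77 CPM. In DMSO its control level was lower, at 0.717 to 2.02 CPM. In the matricellular list the count of lower genes exceeded that of higher genes under some alternatives, for example 8 higher and 9 lower when control lenalidomide replicate 2 was left out.

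Genes of cell adhesion also separated the lines. DSG2, a desmosomal cadherin on chromosome 18, had no read in the 3 SPARK-ON libraries and 20.4 and 16.4 CPM in control cells, at least 243-fold lower. CDH11 had 12.2, 13 and 14 CPM against 123 and 122 CPM, a difference of -3.25 (SE 0.12, adjusted p = 3.41e-13), and CDH2, the N-cadherin gene on chromosome 18, one of -1.81. CLDN1, a tight junction protein, was higher at 2.75. Of 18 cadherin, desmosome and junction genes 5 were higher and 7 lower, and outside the 3 regions 4 of 15 were higher and 5 lower. Of 30 clustered protocadherins, which give neurons a surface identity, 9 passed the filter on low counts. A gene read in 1 line alone can pass that filter. Of the 9 tested, 6 were lower and 0 higher, with a median of -2.50, so count and median depend in part on the filter. Several of these were at low levels, such as PCDHB15 with 0.303, 0.306 and 0.147 CPM against 3.92 and 5.59 CPM. When genes had to reach 5 CPM in 2 libraries, 1 clustered protocadherin was lower. L1CAM, a neural adhesion molecule, was higher, with 28.9, 30.2 and 29.7 CPM against 2.28 and 2.61 CPM, whereas NCAM1 and NLGN1 were lower at -1.07 and -2.16. Among 23 integrin and laminin genes 11 were higher and 7 lower, with ITGB4 at -2.59 and ITGA7 at 1.14.

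Genes of mesenchymal identity were lower in part. Of 19 tested 8 were lower and 2 higher, with a median of -0.27. SOX9, a factor of neural crest and mesenchyme, had 58.9, 57.7 and 59.1 CPM in SPARK-ON cells against 369 and 329 CPM, a difference of -2.58 (SE 0.080, adjusted p = 5.73e-14). VIM, the vimentin gene, and CD44, a hyaluronan receptor, differed by -1.27 and -1.08, whereas FN1, the fibronectin gene, was higher at 0.83. PRRX1, TWIST1 and SNAI2, factors that define the state, had differences of -0.27, 0.07 and 0.10 that were not called. Of 26 adrenergic identity genes 6 could be tested, and GATA2, CHGB and HAND2 were higher. The 3 others were not called: EYA1 at 2.90 (adjusted p = 0.0559), GATA3 at -0.49 (adjusted p = 0.0548) and TBX2 at -0.10 (adjusted p = 0.582). GATA3 had 6.72, 5.69 and 4.85 CPM in SPARK-ON cells against 7.78 and 8.73 CPM in control cells, with no overlap. In DMSO 4 members were higher and TBX2 was lower. GATA2 had 21.7, 22.1 and 21.3 CPM against 10.8 and 10.4 CPM. HAND2 rested on few reads, at 0.424, 0.856 and 0 CPM against none, and its call was lost without control lenalidomide replicate 2. In the neural crest and Schwann cell list 5 of 13 genes were lower and 2 higher, with SOX2 at -1.13 and NGFR, a neurotrophin receptor, at 2.52.

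**Figure D4:**
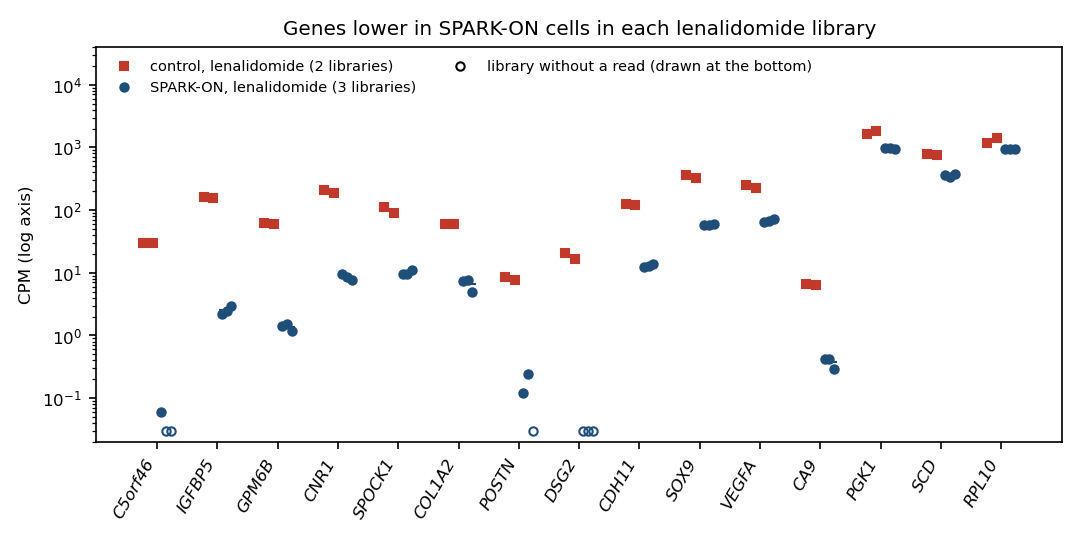
Levels of 15 genes that were lower in SPARK-ON cells, in CPM on a log axis, in each lenalidomide library. Squares are the 2 control and circles the 3 SPARK-ON libraries, short lines are means of groups in which every library had a read, and open symbols are libraries without a read. DSG2 had no read in SPARK-ON cells. Every SPARK-ON library lay below both control libraries in all 15 genes, which were picked for being lower. That held for 29.3% of all tested genes.

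Signalling genes moved both ways. Of 21 immediate early and MAP kinase feedback genes 10 were lower and 4 higher, and outside the 3 regions 8 of 17 were lower and 4 higher. JUN, an AP-1 subunit, had 36.5, 32.4 and 34.3 CPM against 127 and 141 CPM, a difference of -1.96 (SE 0.089, adjusted p = 6.97e-12). DUSP6 and SPRY4, feedback inhibitors that ERK signalling induces, differed by -1.84 and -0.71, and DUSP4 by 1.56. Of 23 Wnt pathway genes 10 were lower and 5 higher, with WNT5A at 2.95 and FZD8 at -1.32. Of 28 TGF-beta and BMP genes 11 were higher and 6 lower, among them LTBP1 at -2.49 and GDF15 at 1.40. Under library size scaling 12 of these were higher and 3 lower, and outside the 3 regions 10 of 25 were higher and 6 lower. IGFBP4, another binding protein of insulin-like growth factors, was higher, with 369, 379 and 357 CPM against 81.4 and 91.9 CPM. Of 21 receptor tyrosine kinases 7 were higher and 7 lower, with PDGFRB at 1.63 and PDGFRA at -3.09.

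Proliferation and stress genes went both ways. Of 29 cell cycle and DNA replication genes 3 were higher, 7 lower and 19 not called. CCND1 and CDK1 were at -0.70 and -0.62 and CCND3 at 0.80, and the MCM2 to MCM7 helicase genes were not called. With scaling by library size alone 6 were higher and 3 lower, so the direction of the list turned with the scaling. In the integrated stress and unfolded protein responses 7 of 18 genes were lower and 3 higher, with CHAC1 and ASNS at -1.77 and -1.61 and DDIT3 at 0.97. Of 13 heat shock genes 5 were higher and 2 lower, with HSPB8 at 2.20. CDKN1A, the p21 gene, had 51.4, 52.1 and 47.9 CPM against 26 and 31.5 CPM, a difference of 0.82 (SE 0.11, adjusted p = 1.48e-05), and 5 of 17 p53 targets and cyclin-dependent kinase inhibitors were higher and 2 lower, with 5 of 13 and 1 outside the 3 regions. Without control lenalidomide replicate 1 there were 4 lower. Mitochondrially encoded transcripts took 2.53% to 2.84% of counts in the 5 libraries, and 5 of 15 were higher and 4 lower. Under library size scaling 5 were higher and 1 lower, without SPARK-ON lenalidomide replicate 2 there were 3 and 2, and without control lenalidomide replicate 1 there was 1 each way.

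The same lines in DMSO, in libraries that share no sample with the comparison above, differed in largely the same way. There 6675 genes (41.6%) passed, 3395 higher (21.1%) and 3280 lower (20.4%). Of the 6334 genes called under lenalidomide 6268 had the same sign in DMSO. Called in both media with the same sign were 5235 genes, 82.6% of the calls under lenalidomide and 78.4% of those in DMSO. Both tests came from 1 fit with the same spread per gene, so this overlap of calls is not that of independent tests. A single gene, ENSG00000275322, was called with opposite signs, at -1.72 and 1.49, with adjusted p = 0.049 and 0.0447. Across the 12278 genes with a mean of at least 1 CPM in each group the 2 line differences correlated at r = 0.935, where genes are not independent replicates and each line contributes to both axes. The immune genes above had DMSO differences of 7.37 for C3, 5.0 for C1S, 2.01 for NFKB2 and 0.83 for B2M. VEGFA, SCD and RPS19 had -1.66, -1.09 and -0.93. CRBN had -0.56.

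**Figure D5:**
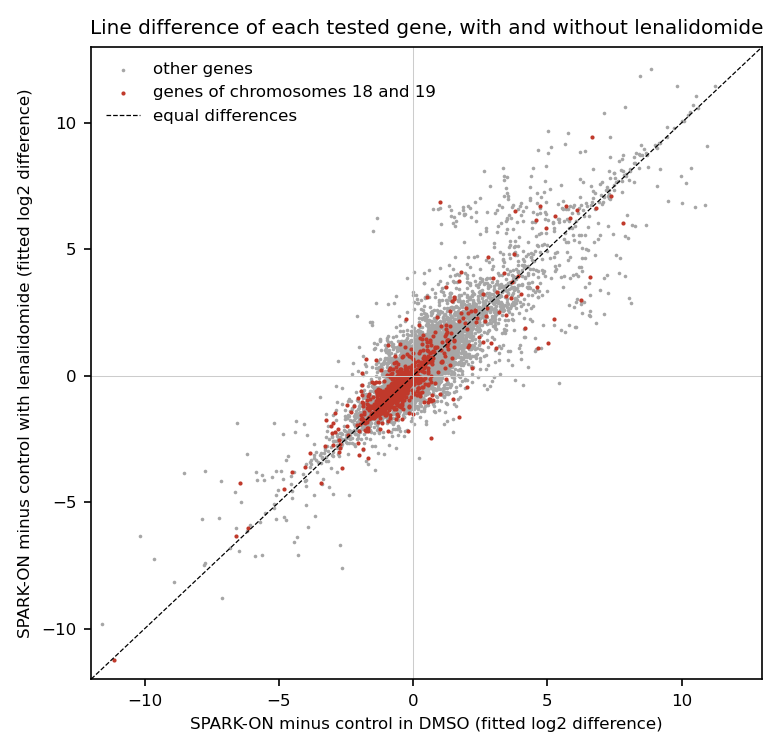
Fitted line difference (SPARK-ON minus control, log2) of each of 16056 tested genes under lenalidomide, on the vertical axis, and in DMSO, on the horizontal axis. Red points are genes of chromosomes 18 and 19 and the dashed line marks equal differences. Points lie along that line, and most red points lie below 0 on both axes.

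The test of whether the line difference itself changed with lenalidomide called 0 genes (0.0%) by edgeR, with 669 (4.17%) at an unadjusted p below 0.05 and a smallest adjusted p of 0.471. That unadjusted count depended on a single library. Without control DMSO replicate 1 it was 1404 of 15906 genes, with 0 called. Omission of any other library, control lenalidomide ones aside, left 512 to 816. DESeq2 called 3 genes, edgeR on all genes with any read 1, and limma-voom 0. The median size of that change over all genes was 0.148 with a median SE of 0.201, so changes of ordinary size were not detectable here. The smallest p belonged to GNAZ, a G protein subunit gene, whose difference was 0.34 under lenalidomide and -1.25 in DMSO (change 1.58, SE 0.28). FBXO32, a ubiquitin ligase subunit gene, and IGFBP4 followed, with changes of 0.52 and 0.56. CDKN1A had a difference of 0.82 under lenalidomide and 0.13 in DMSO (change 0.68, SE 0.15, adjusted p = 0.725). STAT2, of interferon signalling, had 0.54 and -0.12 (change 0.67, adjusted p = 0.869).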

How the data were processed

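The values are raw counts per gene in whole numbers, deposited by the authors without normalization. FastQC, fastp, HTSeq, edgeR and the hg38 build are named per the submitters' processing notes. The aligner, its settings, the strand setting and the annotation release are not given in the sources used here, so reads of overlapping or antisense genes cannot be told apart. Of the table's 61533 genes 61369 had a symbol and 58356 a GRCh38 position (GENCODE, matched without the version). By their labels 11 columns were assigned to samples and used, and 3 that matched no label were not, so the parental SH-EP cells entered no comparison.

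The counts were fitted with edgeR 4.0.16 (R 4.3.3). The filter on low counts was filterByExpr (minimum count 10), libraries were scaled by TMM, and the 4 groups of 11 libraries were fitted in a one-way layout by glmQLFit with 7 residual degrees of freedom. Each contrast was tested two-sided with glmQLFTest, and p-values were adjusted by Benjamini-Hochberg over the 16056 genes tested, with a threshold of 0.05. Differences are log2, SPARK-ON minus control, and SE is the difference divided by the root of F. The procedure was tested on simulated counts. These held no line difference in DMSO and the same spread of each gene in both lines. They therefore do not cover the unlike spreads of the lines or the shifts of whole chromosomes. Promoters came from RefSeq (GRCh38.p14).

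The comparison, the 40 gene lists and the members were chosen with earlier results of these data known. The naming rule takes the 15 highest and 15 lowest called genes that do not overlap and reach 20 CPM, the 3 genes of smallest p in each list, and MYCN, MYC, MAX and CRBN. Some genes that the rule selects are not reported here. All other genes named were picked after their values were seen. Alternatives were omission of each library, a replicate block, thinning to the smallest library, a fit of the compared groups alone, DESeq2 1.42.0, limma-voom 3.58.1 (limma), RLE and library size scaling, and looser and stricter filters. Plots were made in Python 3.11.15 (matplotlib 3.10.9).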

Additional observations from a re-analysis of the deposited data

How the results depend on the processing

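For the genes that the naming rule takes, directions of the line difference held in nearly all alternatives run. Of these genes MYCN alone changed sign, to 0.082 with scaling by library size alone, 0.024 with the filter of 5 CPM in 2 libraries, 0.0033 without SPARK-ON lenalidomide replicate 2 and 0.10 without control lenalidomide replicate 1, never with a call (range over omitted libraries -0.14 to 0.10). Single values of the other genes named above were not followed through the alternatives, neither for sign nor for calls. With that filter 11147 genes were tested, and 721 were higher and 503 lower by at least 2-fold. The test of a changed line difference called 1 gene on all genes with any read and 3 with DESeq2. With scaling by library size alone 4045 genes were higher and 2396 lower, and with the 5 libraries compared alone 3395 and 3331 of 15115. Omission of 1 library left 2471 to 3692 higher and 2584 to 3687 lower, where leaving out a control lenalidomide library leaves 1 whose spread is assumed to be like that of the other groups. Calls of H2BC12 and MT-RNR1 were lost without control lenalidomide replicate 1, and that of HAND2 without control lenalidomide replicate 2. Deviations of same-numbered libraries correlated at -0.182 to 0.037 across genes, and those of other pairs at -0.067 to 0.182. Whether samples were paired cannot be settled by this check. The 2 control lenalidomide libraries necessarily deviate as mirror images, and their column labels are not consecutive. With a replicate block 2850 genes were higher and 2795 lower. The 80 list counts were each set against the alternatives. In 105 of these comparisons a count moved by more than 1.5 times or away from 0, and in 1575 it did not. The moves fell on 33 of the 80 counts. With 2 control libraries and a spread that differed between lines, small differences were the least certain.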
